A study of Mus musculus with 4 samples.

Results

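The 10 genes described here belong to blood vessel endothelium and were followed in RNA-seq counts from mouse inguinal white fat. They are Kdr, Flt1, Tek, Tie1, Angpt2, Pecam1, Cdh5, Plvap, Vwf and Nos3. They were taken by symbol from the 26214 symbols in the count tables, all 10 were present, and all 10 passed the filter on low counts. The libraries came from the stromal vascular fraction (SVF), the cells left when floating adipocytes are removed from digested fat. Mice had received either MHE, a medicinal herb extract (2 libraries), or phosphate-buffered saline, PBS (2 libraries). The labels name no strain, sex, age, diet, dose or duration, nor the composition of the extract. The library protocol speaks of triplicates, and 2 libraries per treatment were analysed here. The labels call them biological replicates but do not say how many animals each one holds. Library totals ran from 27161882 to 33391075 counts.

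Endothelial cells line the vessels, and their growth is steered by a pair of receptor tyrosine kinase systems. Vascular endothelial growth factors (VEGF) act on KDR and FLT1 to drive sprouting and permeability, and angiopoietins act on TEK, with its relative TIE1, to hold vessels quiescent or to loosen them for remodelling. In fat, capillaries supply the tissue with fatty acids and oxygen, and vessel growth accompanies the expansion of a depot. PECAM1 and VE-cadherin (CDH5) hold endothelial cells together, PLVAP forms the diaphragms of fenestrae and caveolae, von Willebrand factor (VWF) binds platelets, and endothelial nitric oxide synthase (NOS3) relaxes the vessel wall. Some of these genes are not restricted to blood endothelium: Pecam1 is also made by platelets and leukocytes, Pecam1 and Cdh5 by lymphatic endothelium, Vwf by megakaryocytes and Plvap by lymph node vessels and sinuses.

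None of the 10 genes differed between MHE and PBS libraries past the threshold, an adjusted p of 0.05 (edgeR quasi-likelihood test, Benjamini-Hochberg adjustment over the 16196 genes tested), where 4.93% of all tested genes were called, 3.97% higher and 0.963% lower. Their adjusted p ran from 0.150 to 0.883. DESeq2 and limma-voom called 0 of the 10 as well. In edgeR 1 gene, Plvap, had an unadjusted p under 0.05, as 28.6% of all tested genes did. In DESeq2 4 of the 10 did, and the share of all genes there is not given. DESeq2 also called more of all tested genes than edgeR, so its list counts below do not compare with the edgeR shares. Log2 fold changes (MHE minus PBS) were negative for 9 genes and positive for Plvap, with a median of -0.55 (-0.96 to -0.13 with a library left out) against -0.02 over all tested genes. No gene of the whole table passed when 1 MHE library, whichever it was, was left out, which touches each call given below. The saline libraries differed from each other: PBS replicate 2 over PBS replicate 1 had a median fold of 1.83 for the 10 genes, against 0.989 for all tested genes. Of the 10 genes, 8 were highest in PBS replicate 2, where 28.7% of tested genes had their highest value, and 7 were lowest in MHE replicate 1, where 25.8% of tested genes had their lowest. Without PBS replicate 1, 5 genes passed (Cdh5, Flt1, Tek, Tie1 and Vwf, all lower in MHE), where 5.99% of the 16644 genes tested in that fit were lower, and without PBS replicate 2 none did, so 1 saline library decides that count. With 1 saline library left, the spread came from the MHE libraries alone. Such calls do not compare with those from all 4 libraries. In bulk RNA, fewer endothelial cells and less of their RNA per cell cannot be told apart.

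**Figure D1:**
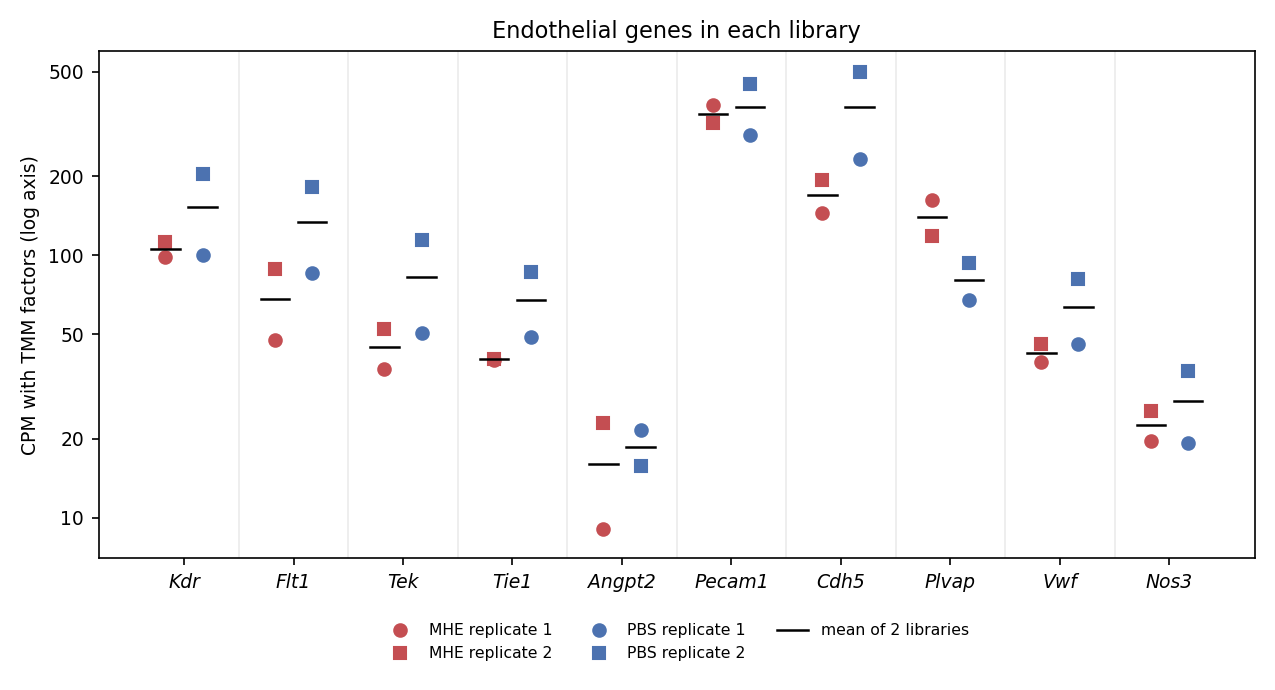
CPM (scaled counts, log axis) of the 10 genes in each library, MHE to the left of PBS; circles are replicate 1, squares replicate 2 and bars the mean of 2 libraries. Of these, 8 genes have their highest point in PBS replicate 2, Plvap is higher in both MHE libraries, and Angpt2 runs from 9.06 to 22.9 CPM within the MHE group.

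The receptors for VEGF came with wide saline values. CPM here is edgeR's scaled count, relative to the library total times its TMM factor. Kdr (VEGF receptor 2, the main signalling receptor; chromosome 5, 75932827 to 75979072 in GRCm38.p6, which mm10 also represents) had 98.1 and 112 CPM in MHE replicates 1 and 2, against 100.5 and 204 CPM in PBS replicates 1 and 2. Both MHE libraries lay next to PBS replicate 1, and PBS replicate 2 stood above the other 3. The means were 105 ± 10.04 CPM in MHE libraries and 152 ± 73.0 CPM in PBS libraries (SD, n = 2 each), and the log2 fold change was -0.53 ± 0.38 (standard error, SE) with an edgeR adjusted p of 0.399. Without PBS replicate 2 its sign turned (0.075). Flt1 (VEGF receptor 1, which binds VEGF-A tightly and also occurs as a soluble decoy; chromosome 5, 147561604 to 147726438) had 47.6 and 88.5 CPM in MHE libraries, against 85.3 and 182 CPM in PBS libraries. MHE replicate 1 was lowest, MHE replicate 2 was level with PBS replicate 1, and the groups overlapped. Its log2 fold change was -0.97 ± 0.48 at an edgeR adjusted p of 0.254, or -1.43 (adjusted p = 0.0383) without PBS replicate 1 and -0.32 (adjusted p = 0.655) without PBS replicate 2. Within a library, the ratio of Flt1 to Kdr in CPM was 0.485 and 0.789 in MHE libraries and 0.849 and 0.892 in PBS libraries. The groups did not overlap in this ratio, with MHE replicate 1 apart from the other 3. The share of all gene pairs whose ratios do not overlap was not computed.

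Like Kdr and Flt1, the TIE receptors were lowest in MHE replicate 1 and highest in PBS replicate 2. Tek (TIE2, the angiopoietin receptor; chromosome 4, 94739086 to 94874976) had 36.9 and 52.4 CPM in MHE libraries, against 50.4 and 114 CPM in PBS libraries. Here too PBS replicate 2 stood above the other 3 libraries and the groups overlapped, with a log2 fold change of -0.88 ± 0.44 (edgeR adjusted p = 0.255). Tie1 (a receptor with no firmly known ligand of its own that modulates TEK; chromosome 4, 118471191 to 118489849) had 39.9 and 40.2 CPM in MHE libraries, against 48.7 and 86.5 CPM in PBS libraries. Both MHE libraries were nearly equal and lay below both PBS libraries, as 28.9% of all tested genes did. Its means were 40.1 ± 0.177 CPM in MHE libraries and 67.6 ± 26.7 CPM in PBS libraries (SD, n = 2 each), with a log2 fold change of -0.75 ± 0.32 (edgeR adjusted p = 0.194). Without PBS replicate 1, Tek had -1.37 and Tie1 -1.13, and without PBS replicate 2 they had -0.17 and -0.27.

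Promoter sequence was at hand for these 4 receptor genes and missing for the other 6 genes, so only these 4 are shown. All 4 transcripts were lowest in MHE replicate 1 and highest in PBS replicate 2, but so were Cdh5 and Vwf, which had no promoter entry. Whether promoter sequence bears on that pattern was not tested. Each entry (RefSeq, GRCm38.p6) runs from 250 bases before to 50 bases after a transcript start and is written 5′ to 3′ on the gene's strand. Capitals mark GGAA and its reverse complement TTCC, the core bound by ETS factors, a family that includes ERG and FLI1 of endothelial cells. The windows are chr5:75978406-75978705 (minus strand) for Kdr, chr5:147725962-147726261 (minus strand) for Flt1, chr4:94739039-94739338 (plus strand) for Tek and chr4:118489800-118490099 (minus strand) for Tie1.
Kdr: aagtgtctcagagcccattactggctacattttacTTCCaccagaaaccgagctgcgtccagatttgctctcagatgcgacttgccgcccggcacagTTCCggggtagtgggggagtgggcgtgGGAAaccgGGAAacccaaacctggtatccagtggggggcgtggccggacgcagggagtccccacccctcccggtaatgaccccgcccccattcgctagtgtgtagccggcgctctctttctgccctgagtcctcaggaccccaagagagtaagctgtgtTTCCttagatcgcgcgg
Flt1: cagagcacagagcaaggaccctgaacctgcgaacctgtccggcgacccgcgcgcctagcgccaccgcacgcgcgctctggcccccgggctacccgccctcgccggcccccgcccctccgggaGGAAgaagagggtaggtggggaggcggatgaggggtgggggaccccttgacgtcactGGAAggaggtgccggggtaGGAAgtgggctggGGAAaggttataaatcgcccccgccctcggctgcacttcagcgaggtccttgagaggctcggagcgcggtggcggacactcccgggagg
Tek: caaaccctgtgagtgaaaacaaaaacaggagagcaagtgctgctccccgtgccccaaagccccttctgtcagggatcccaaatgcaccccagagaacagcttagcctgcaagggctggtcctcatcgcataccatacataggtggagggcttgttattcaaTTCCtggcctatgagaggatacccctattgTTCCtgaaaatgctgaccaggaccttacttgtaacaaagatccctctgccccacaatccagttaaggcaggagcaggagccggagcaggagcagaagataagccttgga
Tie1: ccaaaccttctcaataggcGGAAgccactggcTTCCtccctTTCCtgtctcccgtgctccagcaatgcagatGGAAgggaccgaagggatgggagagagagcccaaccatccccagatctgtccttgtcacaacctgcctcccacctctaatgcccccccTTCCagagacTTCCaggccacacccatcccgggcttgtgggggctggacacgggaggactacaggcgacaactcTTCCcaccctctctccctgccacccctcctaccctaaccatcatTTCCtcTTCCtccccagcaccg
The core occurred 5 times in the Kdr window, 4 times in Flt1, 2 times in Tek and 9 times in Tie1, counting both strands. At least 1 copy was in 96.0% of the 32851 promoter entries of the table, with a median of 3, and 1.59% of entries held 9 or more. The longer form CGGAAG was found in Tie1 alone of the 4 and in 16.9% of all entries. Flt1 alone of the 4 held TATAAA (13.6% of all entries) and the palindrome TGACGTCA of the cAMP response element (1.79%). Tek alone held AGATAA, a motif of zinc finger factors such as GATA2, found in 11.2% of entries. The sequence ACGTG, the hypoxia response core found in 19.6%, had no match in these 4 windows. CGGAAG contains the ETS core and the other motifs do not. These are matches of letters, not measured sites.

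Angpt2, a TEK ligand that antagonises TEK signalling in many settings and is made by endothelium during remodelling, did not follow the receptors. It had 9.06 and 22.9 CPM in MHE libraries (301 and 652 counts), against 21.5 and 15.7 CPM in PBS libraries (596 and 465 counts). The lowest and the highest value were both in the MHE group, 2.53-fold apart. Its log2 fold change was -0.22 ± 0.48 with a 95% interval of -1.45 to 1.01 (edgeR adjusted p = 0.785), and the sign turned without MHE replicate 1 (0.31) and without PBS replicate 1 (0.0039). Angpt2 (chromosome 8, 18690263 to 18741562) overlaps the span of Mcph1 on the other strand with no shared exon bases. Mcph1, a gene of chromosome condensation, had 11.1 and 11.1 CPM in MHE libraries and 11.5 and 14.7 CPM in PBS libraries, and was level in both MHE libraries where Angpt2 was not. Angpt1, the activating ligand of TEK, had 14.6 and 14.7 CPM in MHE libraries, against 16.7 and 22.1 CPM in PBS libraries (log2 fold change -0.41 ± 0.24, edgeR adjusted p = 0.312). The ratio of Angpt2 to Angpt1 in CPM was therefore 0.622 and 1.56 in MHE libraries and 1.29 and 0.711 in PBS libraries, with full overlap of the groups.

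The junction genes differed from each other. Cdh5 (chromosome 8, 104101613 to 104144504) had 145 and 193 CPM in MHE libraries, against 233 and 498 CPM in PBS libraries. Both MHE libraries lay below both PBS libraries, and PBS replicate 2 was 2.14-fold above PBS replicate 1. The means were 169 ± 33.9 CPM in MHE libraries and 366 ± 187 CPM in PBS libraries (SD, n = 2 each), a log2 fold change of -1.11 ± 0.44 with a 95% interval of -2.23 to 0.01 (edgeR adjusted p = 0.177). It was the largest difference among the 10 genes with all 4 libraries. Its adjusted p was 0.0511 with DESeq2, 0.0169 (log2 fold change -1.57) without PBS replicate 1 and 0.438 (-0.45) without PBS replicate 2. Pecam1 (chromosome 11, 106654213 to 106715281) had 372 and 317 CPM in MHE libraries, against 285 and 447 CPM in PBS libraries. The MHE values lay between the saline values, and the log2 fold change was -0.09 ± 0.33 with a 95% interval of -0.93 to 0.76 (edgeR adjusted p = 0.883), positive when libraries were scaled by their totals alone (0.10), without PBS replicate 2 (0.28) and without MHE replicate 2 (0.03). The ratio of Pecam1 to Cdh5 in CPM was 2.56 and 1.64 in MHE libraries and 1.23 and 0.897 in PBS libraries. The groups did not overlap in it, and the share of all gene pairs for which this holds was not computed.

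Plvap (chromosome 8, 71497753 to 71511806) was the gene of the 10 with higher values in MHE. It had 162 and 118 CPM in MHE libraries, against 67.4 and 93.1 CPM in PBS libraries, so both MHE libraries lay above both PBS libraries, as 33.1% of all tested genes did. The means were 140.0 ± 31.0 CPM in MHE libraries and 80.2 ± 18.2 CPM in PBS libraries (SD, n = 2 each), a log2 fold change of 0.80 ± 0.28 with a 95% interval of 0.08 to 1.53. Its unadjusted p was 0.0357 and its edgeR adjusted p 0.150. The value stayed positive without each library in turn, at 0.57 to 1.07, and did not pass in any of those fits. Against Cdh5 the ratio in CPM was 1.11 and 0.611 in MHE libraries and 0.289 and 0.187 in PBS libraries. Plvap overlaps the span of Gtpbp3, a gene of mitochondrial tRNA modification, on the other strand with no shared exon bases. Gtpbp3 had 14.8 and 12.5 CPM in MHE libraries, against 10.03 and 8.85 CPM in PBS libraries.

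Vwf (chromosome 6, 125552948 to 125686679) and Nos3 (chromosome 5, 24364816 to 24384474) had MHE values near those of PBS replicate 1. Vwf had 39.2 and 45.78 CPM in MHE libraries, against 45.81 and 80.8 CPM in PBS libraries. The groups did not overlap, but MHE replicate 2 and PBS replicate 1 were nearly the same. The log2 fold change was -0.58 ± 0.32 (edgeR adjusted p = 0.295), or -0.95 without PBS replicate 1 and -0.10 without PBS replicate 2. Nos3 had 19.6 and 25.5 CPM in MHE libraries, against 19.3 and 36.4 CPM in PBS libraries. PBS libraries held both its lowest and its highest value, and the log2 fold change was -0.30 ± 0.36 (edgeR adjusted p = 0.606), or 0.23 without PBS replicate 2. Nos3 shares 294 exon bases with Atg9b and 1040 with Gm15587, a symbol that is not in the tables, both on the other strand, and reads from either strand cannot be told apart if the counting ignored strand. Atg9b, a gene of autophagy, was low, at 1.72 and 1.76 CPM in MHE libraries and 0.902 and 1.18 CPM in PBS libraries.

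**Figure D2:**
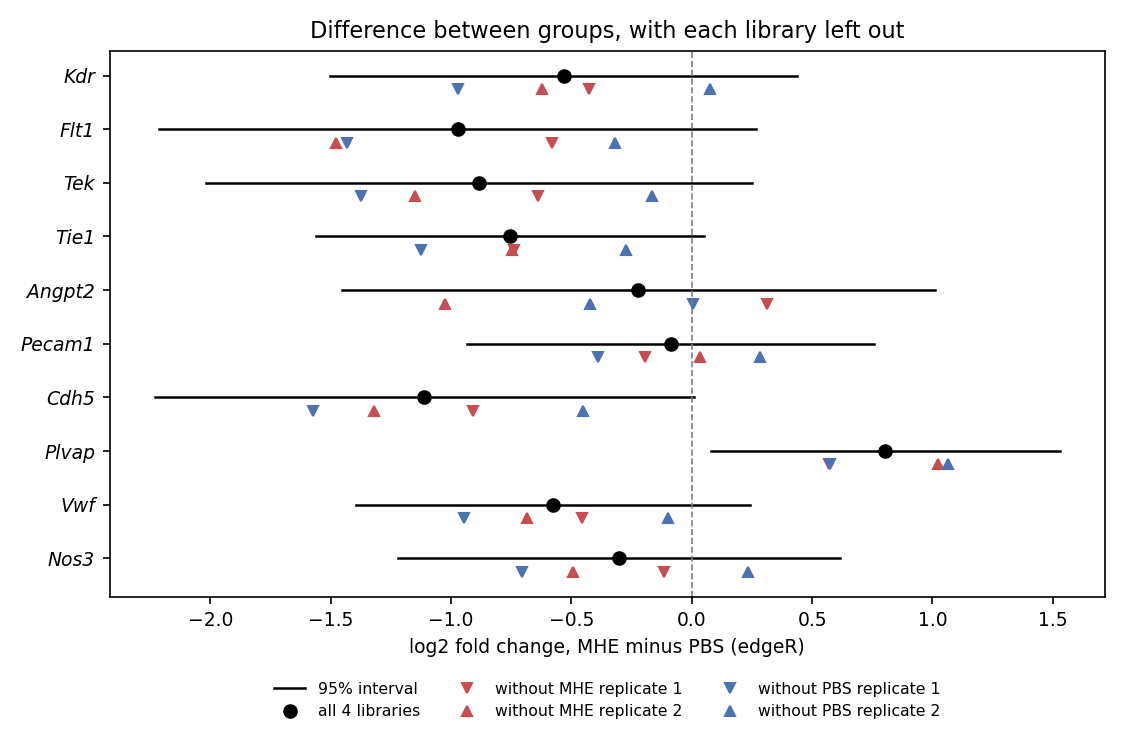
Log2 fold change (MHE minus PBS) of each gene with all 4 libraries (black point, with its 95% interval) and without each library in turn (triangles below, red for an MHE and blue for a PBS library left out). Leaving out PBS replicate 2 moves 8 of the 10 genes toward or past 0, while Plvap stays at 0.57 or more in every fit shown.

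Compared with each other per length, the 10 genes spanned a wide range of levels. CPM was divided by the length of the longest coding transcript in GENCODE M21 (CPM per kilobase), since the annotation used for counting is not known here. Pecam1 stood highest at 100.2 ± 11.3 CPM per kilobase in MHE libraries and 106 ± 33.2 in PBS libraries. Cdh5 had 42.4 ± 8.49 and 91.5 ± 46.9 CPM per kilobase in MHE and PBS libraries, and Plvap 70.5 ± 15.6 and 40.4 ± 9.16 (SD, n = 2 each). By their means over the 4 libraries, these 3 genes exceeded at least 91.95% of the 15644 tested genes with a length. The receptors followed at 17.8 ± 1.69 CPM per kilobase in MHE libraries and 25.7 ± 12.3 in PBS libraries for Kdr, and 9.46 to 9.87 (MHE means) and 15.97 to 19.4 (PBS means) for Flt1, Tek and Tie1. Nos3, Vwf and Angpt2 were lowest, with MHE means of 4.49 to 5.46 and PBS means of 5.23 to 7.17 CPM per kilobase. Neighbours in this order overlapped in their library values in every case but 1, Tie1 over Nos3. With the length of all exons merged, Cdh5 came first, Pecam1 second and Vwf last.

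Other endothelial genes were highest either in PBS replicate 2 or in MHE replicate 1. The list held 12 genes, among them ESAM and CLDN5 of endothelial junctions and the guidance receptor ROBO4. None passed in edgeR or limma-voom, and 3 passed in DESeq2. At an edgeR unadjusted p under 0.05 were 3 of the 12, against 28.6% of all tested genes. Of the 12, 9 had negative log2 fold changes, with a median of -0.27 against -0.02 over all genes. In MHE replicate 1, 5 were highest (26.8% of all tested genes) and 2 lowest (25.8%). The other 7 were highest in PBS replicate 2 (28.7% of all tested genes). The median was 0.04 without that library and -0.60 without PBS replicate 1. Esam had 52.3 and 49.8 CPM in MHE libraries against 82.0 and 127 CPM in PBS libraries, and Cldn5 182 and 152 CPM against 275 and 458 CPM. Cd93, a receptor of angiogenic endothelium, had 67.6 and 125 CPM in MHE libraries against 214 and 270 CPM in PBS libraries, and Robo4 37.9 and 44.0 CPM against 45.1 and 83.0 CPM. Both MHE libraries lay below both PBS libraries for these 4 of the 12 genes, a share near the 28.9% of all tested genes. Clec14a, named after its values were seen, lay the other way, at 30.0 and 21.9 CPM in MHE libraries against 18.2 and 20.5 CPM in PBS libraries.

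Set against the mean log2 CPM of those 12 genes in the same library, some of the 10 genes overlapped between groups and some did not. In plain CPM, 62% of all tested genes did not overlap, and the share on this relative scale was not computed. The mean of the 12 genes was 5.57 and 5.39 in MHE libraries and 5.54 and 6.11 in PBS libraries. Relative to it, Kdr was at 1.05 and 1.42 in MHE libraries and 1.11 and 1.56 in PBS libraries, and its range over the 4 libraries shrank to 0.51, against 1.05 before. Nos3 and Vwf overlapped between groups too, with differences (MHE minus PBS, log2) of 0.10 and -0.18. Cdh5 kept lower values in MHE (1.61 and 2.20) than in PBS libraries (2.32 and 2.85), as did Tie1 (-0.25 and -0.06 against 0.07 and 0.32). Plvap had the largest difference, at 1.77 and 1.49 in MHE libraries against 0.54 and 0.43 in PBS libraries, a difference of 1.15. Pecam1 was at 2.97 and 2.92 in MHE libraries against 2.62 and 2.69 in PBS libraries. These relative levels carry no test, since an exact two-sided permutation of 2 against 2 libraries cannot give a p below 1 in 3.

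**Figure D3:**
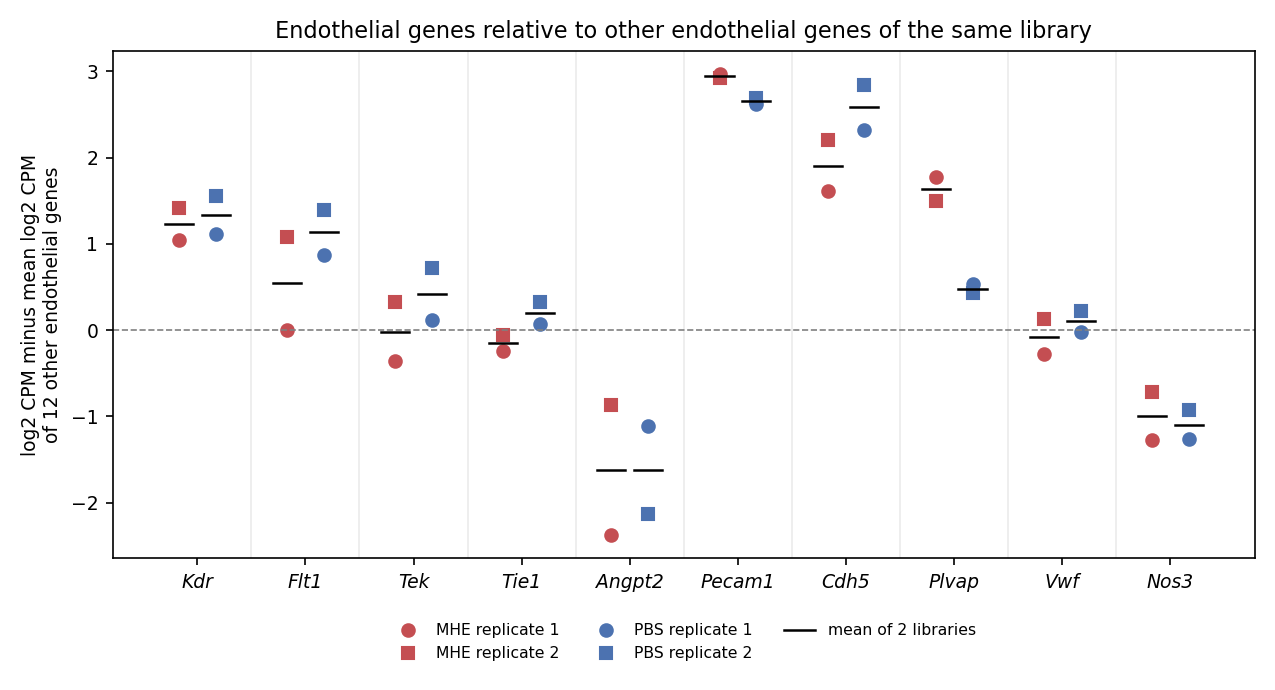
Log2 CPM of each gene minus the mean log2 CPM of 12 other endothelial genes in the same library, MHE to the left of PBS; circles are replicate 1, squares replicate 2 and bars the mean of 2 libraries. Plvap and Pecam1 lie higher in both MHE libraries, Cdh5 and Tie1 lower, and the other 6 genes overlap. In plain CPM, 62% of all tested genes did not overlap, and the share on this scale was not computed.

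Of the genes around the receptors, a ligand of FLT1 passed the test. Among 8 VEGF ligands and co-receptors 1 fell, Pgf, the placental growth factor, with 3.31 and 2.91 CPM in MHE libraries against 9.42 and 10.5 CPM in PBS libraries (log2 fold change -1.67 ± 0.29, edgeR adjusted p = 0.0469). Its call was lost with library totals (adjusted p = 0.0585) and with no low-count filter (0.0502). Vegfc and Vegfd, ligands of the lymphatic receptor FLT4, had log2 fold changes of -1.03 ± 0.24 and -1.39 ± 0.54 and Flt4 itself 1.03 ± 0.24, at edgeR adjusted p of 0.0758, 0.174 and 0.0721. Flt4 had 27.9 and 31.3 CPM in MHE libraries against 12.4 and 16.5 CPM in PBS libraries. It passed in edgeR with library totals and in DESeq2 (adjusted p = 0.0466 and 0.0177). Vegfa, the main ligand of KDR and outside the rule for named genes, had 73.1 and 149.6 CPM in MHE libraries against 109 and 121 CPM in PBS libraries, so the saline values lay between the MHE values. The list median was -0.65, or -0.35 without PBS replicate 2.

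Of 5 angiopoietin ligands and TEK partners none passed in edgeR, DESeq2 or limma-voom, nor at an unadjusted p under 0.05 (median -0.28, or 0.04 with limma-voom). Without PBS replicate 1 the median was 0.15, and without MHE replicate 1 it was -0.01. Ptprb, the endothelial phosphatase that acts on TEK and VE-cadherin, had 121 and 200.2 CPM in MHE libraries against 193 and 417 CPM in PBS libraries. PBS replicate 2 stood above the other 3 here as for Tek and Cdh5. Among 11 genes of Notch signalling and of tip and stalk cells, 1 fell: Apln, the tip cell peptide apelin, with 5.63 and 8.11 CPM in MHE libraries against 22.7 and 32.5 CPM in PBS libraries (log2 fold change -2.01 ± 0.32, edgeR adjusted p = 0.0418). Its receptor Aplnr and the Notch ligand Dll4 had -1.31 ± 0.27 and -1.03 ± 0.22 at edgeR adjusted p of 0.0589 and 0.0672, and Notch4, an endothelial Notch receptor, -0.94 ± 0.31 (0.132). Of the 11, 10 had negative values (median -0.96, or -0.46 without PBS replicate 2), and the MHE libraries lay below both PBS libraries in 7, as in 28.9% of all tested genes. Without PBS replicate 1, 7 of the 11 passed as lower, against 5.99% of all genes tested in that fit.

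Nitric oxide and haemostasis lists each held 1 called gene. Of 9 nitric oxide genes, 1 fell: Ddah1, which degrades the endogenous inhibitor of nitric oxide synthases, with 6.08 and 6.53 CPM in MHE libraries against 31.3 and 29.0 CPM in PBS libraries (log2 fold change -2.26 ± 0.21, edgeR adjusted p = 0.0212). All 9 were negative (median -0.84, or -1.07 without PBS replicate 1). The caveolar coat gene Cav1, whose product binds NOS3, had 1257 and 1028 CPM in MHE libraries against 2819 and 4130 CPM in PBS libraries (edgeR adjusted p = 0.0858). Cav1 and Ddah1 are also expressed by adipocytes. Of 7 haemostasis genes, 1 rose: F8, coagulation factor VIII, the plasma partner of VWF, with 44.6 and 33.03 CPM in MHE libraries against 5.13 and 8.62 CPM in PBS libraries (log2 fold change 2.50 ± 0.34, edgeR adjusted p = 0.0335). The median of the haemostasis list was 0.10, and -0.34 to 0.17 with a library left out; without PBS replicate 1, 1 gene also passed as lower.

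Arterial and capillary genes had negative medians with 0 called genes, and the venous list held 1 called gene. None of 5 arterial genes passed in edgeR or limma-voom, and 1 passed in DESeq2. At an edgeR unadjusted p under 0.05 were 4 of them, against 28.6% of all tested genes. In all 5 both MHE libraries lay below both PBS libraries, as in 28.9% of all tested genes. The arterial median was -0.86, or -1.19 without PBS replicate 1 and -0.57 without PBS replicate 2. Sema3g, a semaphorin of arteries, had 25.3 and 37.0 CPM in MHE libraries against 62.0 and 112 CPM in PBS libraries. Of 8 fat capillary genes none passed in edgeR or limma-voom, and 2 passed in DESeq2. At an edgeR unadjusted p under 0.05 were 3 of the 8, against 28.6% of all tested genes, and all 8 were negative. Their median was -0.78, or -0.41 without PBS replicate 2 and -0.51 without MHE replicate 2. In the fit that left out PBS replicate 1, 3 of the 8 were called. Gpihbp1, which carries lipoprotein lipase to the capillary lumen, had 104 and 76.6 CPM in MHE libraries against 132 and 207 CPM in PBS libraries, and Cd36, a fatty acid transporter also made by adipocytes and macrophages, 2409 and 2352 CPM against 4881 and 6188 CPM. Of 6 venous and activation genes 1 rose: Vcam1, a leukocyte adhesion receptor also made by stromal cells of lymph nodes, with 223 and 251 CPM in MHE libraries against 54.6 and 40.3 CPM in PBS libraries (log2 fold change 2.32 ± 0.26, edgeR adjusted p = 0.0248). The list median was -0.15, or 0.03 with library totals alone, and -0.35 to 0.23 with a library left out, with Sele, E-selectin, at 0.753 and 1.51 CPM against 0.144 and 0.372 CPM (edgeR adjusted p = 0.168).

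Endothelial transcription factors had 5 positive and 6 negative values. None of 11 passed in edgeR with all 4 libraries and the stated filter and scaling. At an edgeR unadjusted p under 0.05 were 4 higher and 2 lower, against 28.6% of all tested genes in either direction. DESeq2 called 1 higher and 2 lower, and limma-voom 1 higher. Ets1, also abundant in lymphocytes, had 522 and 494 CPM in MHE libraries against 96.0 and 169.8 CPM in PBS libraries (log2 fold change 1.93 ± 0.37, edgeR adjusted p = 0.0537). It passed in edgeR with library totals (adjusted p = 0.0371), with no low-count filter (0.0478) and with the stricter filter (0.0486). Without PBS replicate 1, 2 genes passed as higher and 2 as lower, and without PBS replicate 2, 2 as higher. Sox7 and Sox17, factors of the vascular lineage, had -0.96 ± 0.26 and -1.12 ± 0.31 (edgeR adjusted p = 0.0967 and 0.0995), and Lmo2, shared with blood cells, 0.90 ± 0.29 (0.132). The median of the 11 was -0.18, or 0.0055 with library totals alone, and -0.38 to 0.11 with a library left out.

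**Figure D4:**
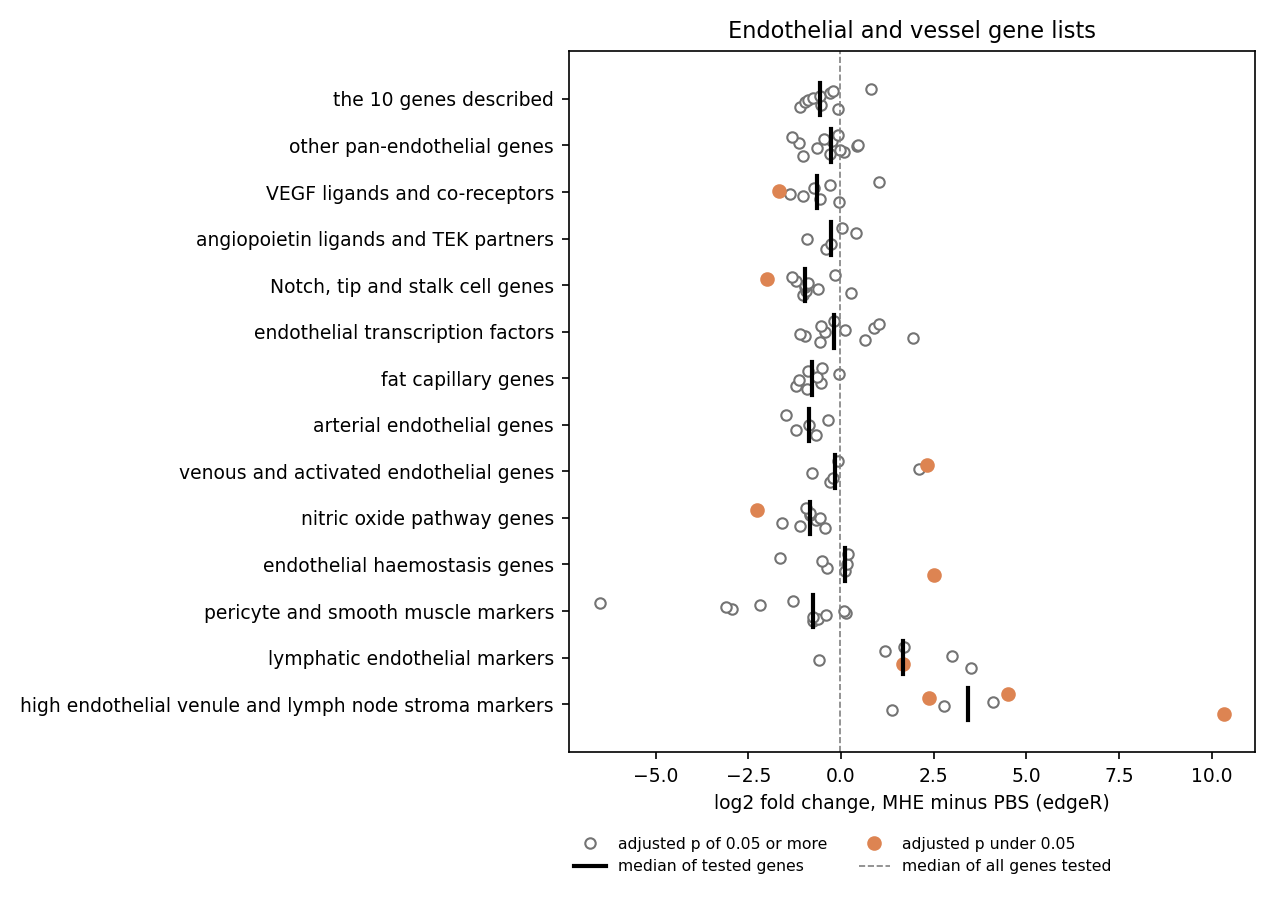
Log2 fold change (MHE minus PBS) of each tested gene in the vessel lists; filled orange points have an edgeR adjusted p under 0.05, bars are list medians and the dashed line is the median of all tested genes (-0.02). The 10 genes and the arterial, capillary and Notch lists have medians below 0 with at most 1 called gene each, and the lymphatic and lymph node lists have medians of 1.68 and 3.44.

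Markers of other cell types differed between the same libraries, and their part in these results was not tested. Lymphatic markers summed to 836 and 581 CPM in MHE libraries and 223 and 56.3 CPM in PBS libraries, with 1 of 6 called higher (Lyve1, log2 fold change 1.67 ± 0.20, edgeR adjusted p = 0.0255), 3 in DESeq2, 2 in limma-voom and 5 without PBS replicate 1. Ccl21a made up most of the lymphatic sum in MHE libraries, at 630 and 375 CPM, against 124 and 1.22 CPM in PBS libraries (edgeR adjusted p = 0.319). Lymphatic log2 fold changes were positive for 5 of the 6 and negative for Pdpn (-0.60 ± 0.48), named after its values were seen. High endothelial venule and lymph node stroma markers summed to 196 and 107 CPM in MHE libraries and 23.0 and 13.5 CPM in PBS libraries. Of these, 3 of 6 tested rose, Glycam1, Cxcl13 and Tnfsf11; Glycam1 had 0 counts in PBS replicate 2 and Ccl19 was listed at 0 in all 4. DESeq2 called 5 of the 6, and 6 passed without PBS replicate 1. T cell markers (8 of 8 higher, or 6 with no low-count filter) summed to 837 and 630.1 CPM in MHE libraries and 33.2 and 11.7 CPM in PBS libraries, and B cell markers (2 of 7 higher) to 1699 and 1379 CPM in MHE libraries and 95.3 and 5.61 CPM in PBS libraries. Of the B cell markers, 7 passed in DESeq2 and with either PBS library left out, 4 in limma-voom and 1 with no low-count filter. Platelet and megakaryocyte markers summed to 50.1 and 38.2 CPM in MHE libraries and 51.8 and 38.2 CPM in PBS libraries, most of it Pf4, platelet factor 4, at 32.6 and 25.9 CPM in MHE libraries and 44.5 and 34.6 CPM in PBS libraries. Itga2b, the platelet integrin, lay the other way, at 12.3 and 8.99 CPM in MHE libraries and 4.22 and 0.811 CPM in PBS libraries (edgeR adjusted p = 0.165, DESeq2 0.0412), and Gp1ba was also higher in both MHE libraries. None of the 4 tested passed in edgeR or limma-voom (1 at an unadjusted p under 0.05, and 1 without PBS replicate 1). Pericyte and smooth muscle markers summed to 616 and 1014 CPM in MHE libraries and 3073 and 3360.1 CPM in PBS libraries. In PBS libraries that sum was mostly contractile genes. Of the 11 markers, 0 were called in edgeR and limma-voom, and 4 were called lower in DESeq2. At an edgeR unadjusted p under 0.05 were 4, all lower, against 28.6% of all tested genes. The list median was -0.77, or -0.51 without PBS replicate 2. Acta2, smooth muscle actin, had 126 and 295 CPM in MHE libraries and 1025 and 2214 CPM in PBS libraries. Myh11, smooth muscle myosin, had 23.0 and 45.3 CPM in MHE libraries and 521 and 66.6 CPM in PBS libraries. Rgs5 had 213 and 306 CPM in MHE libraries, above Acta2 there, and 296 and 587 CPM in PBS libraries. The pericyte markers Rgs5, Pdgfrb, Cspg4, Notch3, Kcnj8 and Abcc9, named after their values were seen, overlapped between the groups. So did the muscle genes Cnn1 and Des, while Acta2, Myh11 and Tagln did not overlap. Of all tested genes, 62% did not overlap. Adipocyte markers summed to 10302 and 9124 CPM in MHE libraries and 14487 and 22217 CPM in PBS libraries, where PBS replicate 2 was again highest. Of these markers, 1 of 8, Lep, fell (edgeR adjusted p = 0.0409), and DESeq2 called 3 lower. Log2 fold changes were negative for 7 of the 8 (list median -0.69). Cfd, named after its values were seen, lay the other way, at 2016 and 2140 CPM in MHE libraries against 854 and 1644 CPM in PBS libraries. Transcripts of mature adipocytes were thus plentiful in a fraction labelled as stromal vascular, with Adipoq, the adiponectin gene, at 2075 and 1462 CPM in MHE libraries against 3172 and 4230 CPM in PBS libraries.

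Genes with the most similar pattern were sought by the root mean square difference, over the 4 libraries, between centred log2 CPM and the mean of the 10 genes. That mean profile was -0.38 and -0.05 in MHE libraries and -0.17 and 0.59 in PBS libraries. Among 10408 genes compared, the 6 closest were Zbtb4, Stim2, Snrk, Vwa8, Mpp2 and Iffo2, with differences of 0.0107 to 0.0390. Zbtb4, a zinc finger gene, had 128 and 162 CPM in MHE libraries against 148 and 248 CPM in PBS libraries, and Snrk, a kinase gene, 207 and 257 CPM against 239 and 384 CPM. Of the 10 genes themselves, Vwf and Kdr were nearest to their common profile (0.0636 and 0.103), and Angpt2 and Plvap farthest (0.558 and 0.682).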

How the data were processed

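RNA was sequenced from the stromal vascular fraction of mouse inguinal fat, 2 MHE and 2 PBS libraries, grouped by their titles. Trizol was used to isolate total RNA, per the labels' protocols. The deposited values are raw read counts by symbol, without normalization; the submitters' processing notes list the aligner TopHat2, edgeR, limma and build mm10, and neither the counting program nor its annotation and strand setting is given in the sources used here. Reads of overlapping genes therefore cannot be separated. Totals ran from 27161882 to 33391075 counts.

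Genes were filtered with filterByExpr of edgeR 4.0.16 (R 4.3.3; minimum count 10, minimum total 15), which left 16196. After TMM scaling (factors 0.886 to 1.07), the quasi-likelihood test (robust fit) was applied with Benjamini-Hochberg adjustment and a threshold of 0.05. The SE is |log2 fold change| over the square root of F, and log2 CPM used a prior count of 2. The biological coefficient of variation was 33.6%. The procedure was also run on simulated counts, drawn independently for each gene. Such draws cannot show how it handles a shift shared by many genes of a library. Pairs of libraries differed beyond sampling noise (chi-square per degree of freedom of 141 or more). The p-values set the difference between groups against a spread estimated from these libraries. Alternatives were other scalings, DESeq2 1.42.0, limma-voom (limma 3.58.1), other filters, leaving out each library, and a block for replicate number.

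The 10 genes, the lists and the tests were chosen with earlier results of these data known. Besides the 10 genes, the text names genes overlapping them, up to 4 genes with the smallest p of each list, and the 6 genes with the most similar pattern; others are said to be outside that rule or named after their values were seen. Coordinates and promoters come from RefSeq (GRCm38.p6), which had promoter entries for 4 of the 10 genes, and lengths from GENCODE M21.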

Additional observations from a re-analysis of the deposited data

How the results depend on the processing

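With all 4 libraries, 643 genes were higher and 156 lower in MHE. DESeq2 called 1714 and 1237, and limma-voom 890.0 and 243. Counts of list genes called by DESeq2 are to be read against its own totals, which exceed those of edgeR. With each library left out in turn the counts ran from 0 to 1753 higher and from 0 to 1233 lower, and they were 0 without either MHE library (edgeR; 2352 and 2596 genes at an unadjusted p under 0.05), so that Pgf, Apln, Ddah1, F8, Vcam1 and every other called gene lost its call there. Leaving out 1 library leaves a lone library whose spread is taken from the other group. Of the 10 endothelial genes, 0 were called higher in any fit, and 0 to 5 lower with a library left out, 5 of them without PBS replicate 1; no other alternative called any. Log2 fold changes changed sign for 4 genes. With a library left out, Pecam1 ran from -0.39 to 0.28 (0.03 without MHE replicate 2), Kdr from -0.97 to 0.075, Nos3 from -0.71 to 0.23 and Angpt2 from -1.03 to 0.31 (0.0039 without PBS replicate 1); Pecam1 was 0.10 with library totals alone, and the cause was not tested. Library totals moved the median of all genes to 0.14, against -0.02.

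The replicate numbers of the 2 groups are not said to mark shared animals or batches. Deviations of same-numbered libraries from their group means correlated at 0.12 over genes, which with 2 pairs does not pair them. With the replicate block, 573 genes were higher and 191 lower, and 0 of the 10 endothelial genes were called. Of the genes in the other lists, Pgf (adjusted p = 0.0661), F8 (0.0563), Tnfsf11 (0.0623) and Myh4 (0.0631) lost their calls in that edgeR fit. Passing as lower there were Aplnr (0.0462), Sema3g (0.0434), Acta2 (0.0369), Acta1 (0.0369) and the progenitor markers Col15a1 (0.0409) and Pi16 (0.0466). In the haemostasis list 1 gene also passed as lower there. With 2 libraries a group, the 95% intervals of the 10 genes reach past a 2-fold change for all but Pecam1 (-0.93 to 0.76 on the log2 scale).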

Other observations

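Beside the vessel lists, 3 further marker lists describe what the libraries held. Macrophage markers had a median log2 fold change of -0.08 (0.07 with library totals alone, and -0.37 to 0.15 with a library left out), with 0 of 7 called in edgeR, DESeq2 and limma-voom and 0 at an unadjusted p under 0.05 (1 lower without PBS replicate 2), and summed to 886 and 1289 CPM in MHE libraries and 1677 and 882 CPM in PBS libraries. Adgre1, the F4/80 antigen, had 37.9 and 88.4 CPM in MHE libraries against 199.6 and 72.4 CPM in PBS libraries, so PBS replicate 1 stood highest where most endothelial genes were highest in PBS replicate 2. Of 7 progenitor markers 1 rose, the adhesion receptor gene Icam1, which activated endothelium also makes, with 101 and 116 CPM in MHE libraries against 28.9 and 28.5 CPM in PBS libraries (log2 fold change 1.91 ± 0.20, edgeR adjusted p = 0.0219), and DESeq2 called 2 higher and 1 lower. The list median was -0.21, or 0.14 without MHE replicate 1 and -0.86 without MHE replicate 2. A further marker passed as lower when PBS replicate 1 was left out.

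Markers of the skeletal muscle list differed among libraries and from each other. They summed to 57.6 and 160.2 CPM in MHE libraries and 284 and 1176 CPM in PBS libraries. Acta1 alone had 52.9 and 155 CPM in MHE libraries and 266 and 1174 CPM in PBS libraries. Ckm had 0.993 and 1.16 CPM in MHE libraries, 17.2 CPM in PBS replicate 1 and 0 counts in PBS replicate 2. Tnnt3 lay the other way, at 1.35 and 1.58 CPM in MHE libraries against 0.0722 and 0.237 CPM in PBS libraries. Of 5 such markers 1 rose, Myh4, with 2.08 and 1.47 CPM in MHE libraries against 0.108 and 0.0338 CPM in PBS libraries (69 and 42 counts against 3 and 1; edgeR adjusted p = 0.0486, or 0.0520 with limma-voom and 0.0552 with no low-count filter). DESeq2 called 2 higher and 1 lower, as did the fits with 1 PBS library left out. The median of these 5 was -1.04, and 1.11 with limma-voom and 0.20 with the stricter filter, and it ran from -1.70 to 2.60 with a library left out.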
